A study of Rattus norvegicus with 16 samples.

Results

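The genes described here are the matrix metalloproteases (Mmp), their tissue inhibitors (Timp), and the Adamts and Adamts-like (Adamtsl) genes measured in the right ventricular wall of the rat. They were chosen by symbol alone, as every measured gene named Mmp or Timp with a number, or with a name that starts with Adamts. The rule found 47 of 17245 genes, namely 21 Mmp, 4 Timp, 18 Adamts and 4 Adamtsl genes. RNA came from male Wistar rats of 160 to 180 g and was hybridised to 16 Affymetrix arrays, 1 per sample. The labels give 5 samples as RVF+ (RVF+ 8 to 12), 4 as RVF (RVF 13 to 16) and 7 as CON (CON 1 to 7), where the number is the one in the sample's label. The animals had either a sham operation or a band around the pulmonary artery, which loads the right ventricle with pressure, but which animals had which is not given. The labels do not spell out RVF+ and RVF, and give no age, time after surgery or batch. The series title concerns right ventricular failure under chronic pressure load, its clinical symptoms and diastolic dysfunction.

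Matrix metalloproteases are zinc-dependent enzymes, made as inactive precursors, that cut collagens and other proteins of the extracellular matrix, and Timp proteins bind and block their active site. Adamts proteins are secreted relatives with thrombospondin repeats, some of which cleave proteoglycans such as versican, while others trim the precursor of fibrillar collagen. Adamts-like proteins share the repeats but lack the protease domain, and several bind fibrillin. In the heart these families are known for the turnover of the interstitial matrix, which is remodelled under load.

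Values are log2 of the deposited normalised intensity, so that a difference of 1 is a 2-fold change. The intensity of one probe set cannot be set against that of another, so levels are compared between arrays and not between genes. A gene was called above background where its highest group mean exceeded 4.02, the 95th percentile of 235 chemosensory receptor genes measured on the same arrays. By that rule 36 members were above background and 11 near it. Mmp12 and Mmp9 passed through RVF+ and RVF alone and Mmp21 through CON alone, since their other group means were below that level. Differences were tested with limma in 1 fit over the 3 groups and adjusted over all 17245 genes. A gene is called where the adjusted p is under 0.05. Both comparisons with CON use the same 7 CON arrays and are therefore not independent.

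All 8 cardiomyocyte markers were above background in this tissue. RVF+ 8 stood apart from the other arrays. Its root-mean-square distance from the CON mean over the 47 members was 1.17 on the log2 scale, against 0.522 to 0.858 in the other RVF+ arrays, 0.553 to 0.657 in RVF and 0.176 to 0.212 in CON. It also had the lowest summed intensity of cardiomyocyte markers and the highest of macrophage markers. Values without it are given beside some of the results whose call or size rests on it. Other sizes shifted without it too, in both directions. The RVF+ difference from CON went from 0.97 to 0.83 for Mmp14 and from 0.51 to 0.61 for Mmp2.

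The families were called higher more often than genes at large in both comparisons with CON. In RVF+ 16 of the 47 members (34.0%) were higher than in CON and 4 (8.51%) were lower, against a background over all genes of 14.1% higher and 13.6% lower. In RVF 12 members (25.5%) were higher than in CON and 5 (10.6%) were lower, against 8.86% and 8.29% of all genes. The median difference over the 47 members was 0.19 for RVF+ and 0.15 for RVF, against -0.012 and -0.0087 over all genes. By family, 5 of 21 Mmp, 2 of 4 Timp, 7 of 18 Adamts and 2 of 4 Adamtsl genes were higher in RVF+, and 1 Mmp, 1 Timp and 2 Adamts genes were lower. In RVF the higher genes were 2 Mmp, 2 Timp, 5 Adamts and 3 Adamtsl, and the lower genes were 1 Mmp, 1 Timp and 3 Adamts. The share of Mmp genes called higher in RVF, 9.52%, was near the 8.86% of all genes. The share called was higher among genes above background at large too, at 19.1% higher and 17.9% lower in RVF+ and 12.2% higher and 11.0% lower in RVF. For the 36 members above background the shares were 44.4% higher and 11.1% lower in RVF+, and 33.3% higher and 13.9% lower in RVF. None of the 11 members near background was called in either comparison. Without RVF+ 8 the counts were 17 higher and 4 lower in RVF+, against 12.9% and 12.0% of all genes, and 16 higher and 6 lower in RVF, against 13.4% and 11.2%. With each array centred on its median, which moved the median difference of all genes to -0.106 in RVF+ and -0.092 in RVF, 12 members were higher and 4 lower in RVF+, against 10.2% and 20.7% of all genes, and 8 were higher and 6 lower in RVF, against 6.29% and 12.2%.

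Complete separation of the groups was more frequent among the members than among all genes upwards, and close to the background downwards. In RVF+ 9 members lay wholly above the CON arrays and 4 wholly below, against 6.96% and 7.63% of all genes. In RVF 12 lay wholly above and 5 wholly below CON, against 9.83% and 9.00%.

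**Figure D1:**
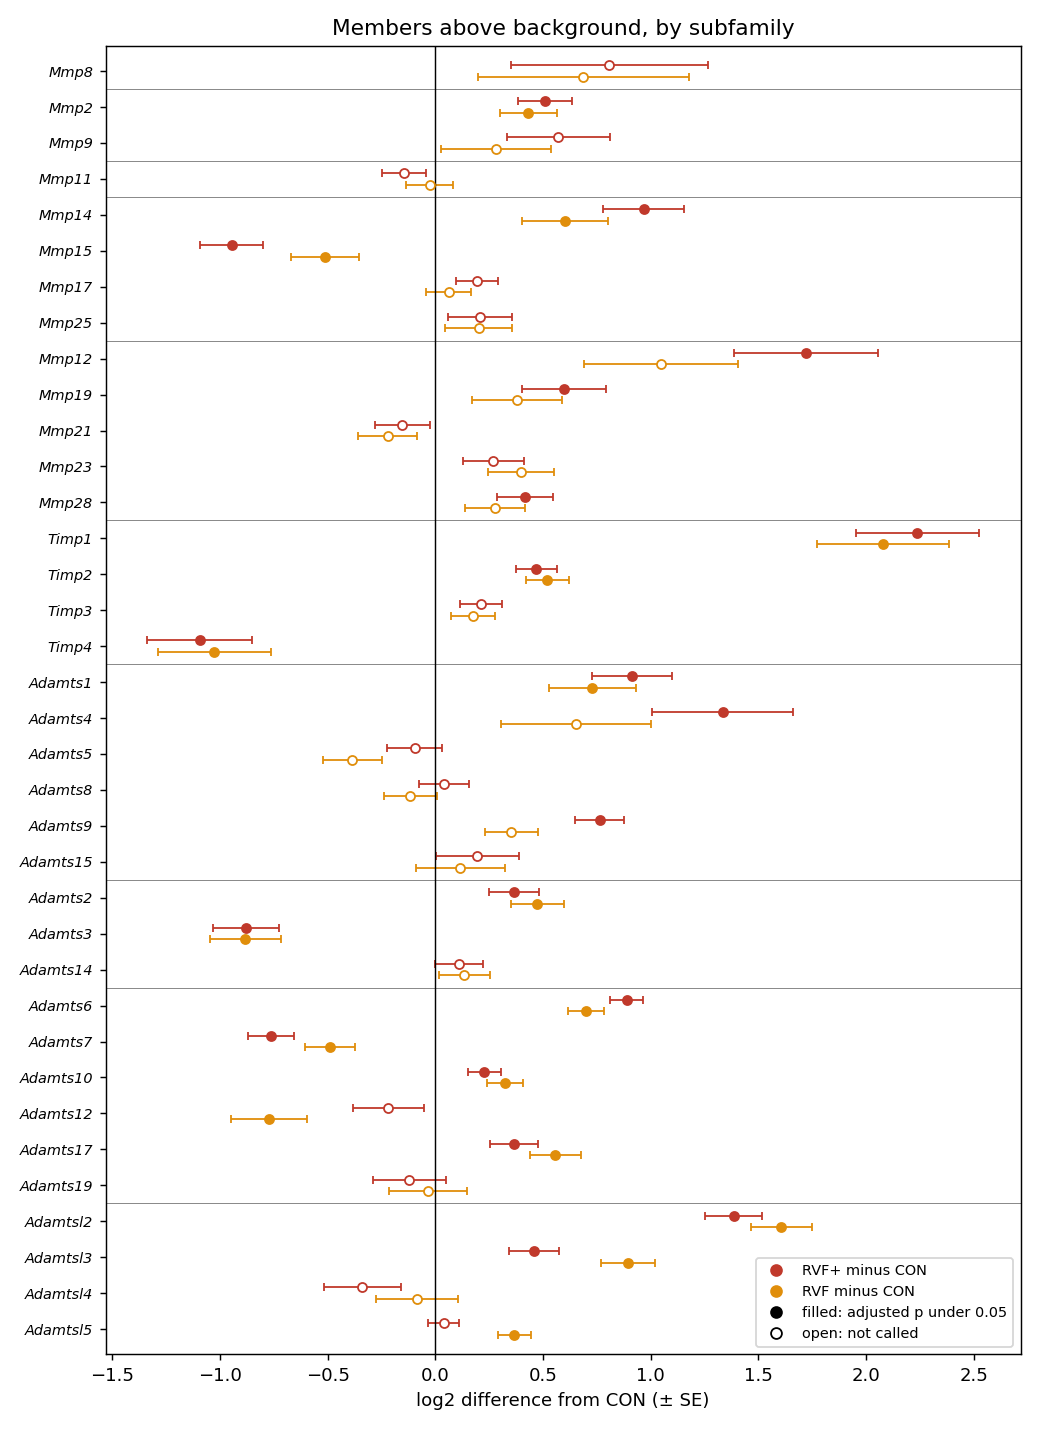
Log2 difference from CON (horizontal axis, ± SE) for the 36 members above background, grouped by subfamily, with RVF+ minus CON in red above RVF minus CON in orange. Filled points are called at an adjusted p under 0.05. Timp1 lies farthest to the right in both comparisons, at 2.24 in RVF+ and 2.08 in RVF, and Timp4 farthest to the left, at -1.09 in RVF+ and -1.03 in RVF.

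Among the 4 inhibitors Timp1 and Timp2 were higher and Timp4 was lower in both groups, and Timp3 was not called. Timp1, which blocks most secreted metalloproteases, had the largest difference of all 47 members in both comparisons. Timp1 had log2 intensities of 11.63, 9.71, 10.05, 9.22 and 9.88 in RVF+ 8 to 12, of 9.90, 10.15, 9.75 and 9.94 in RVF 13 to 16, and between 7.45 and 8.34 in CON (median 7.89). Every RVF+ and RVF array was above every CON array, and RVF+ 8 was the highest of all. The difference from CON was 2.24 ± 0.29 in RVF+ (SE, 4.72-fold, adjusted p = 2.27e-05) and 2.08 ± 0.31 in RVF (4.22-fold, adjusted p = 0.000139). Without RVF+ 8 the RVF+ difference was 1.85 (adjusted p = 7.64e-07).

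Timp4, the inhibitor known for its high level in heart muscle, was lower in both groups. Timp4 had 5.89, 7.60, 7.36, 6.55 and 7.04 in RVF+, 6.79, 7.14, 6.39 and 7.50 in RVF, and 7.66 to 8.31 in CON (median 8.00). All 9 RVF+ and RVF arrays lay below the lowest CON array, and RVF+ 8 was again the extreme one. Timp4 was 2.13-fold lower in RVF+ (log2 difference -1.09 ± 0.24, adjusted p = 0.00276) and 2.04-fold lower in RVF (-1.03 ± 0.26, adjusted p = 0.0111). Without RVF+ 8 the RVF+ difference was -0.84 (adjusted p = 0.00465). Leaving out RVF 15, the lowest RVF array, ended the call in RVF, at an adjusted p of 0.0547.

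Timp2, which blocks metalloproteases and also takes part in the activation of Mmp2 at the cell surface, rose by less. Timp2 had 10.29, 10.76, 10.86, 10.56 and 10.54 in RVF+, 10.60, 10.78, 10.49 and 10.75 in RVF, and 10.03 to 10.31 in CON (median 10.05). RVF did not overlap CON, whereas RVF+ 8 lay within the CON range. The differences were 0.47 ± 0.09 in RVF+ (adjusted p = 0.00129) and 0.52 ± 0.10 in RVF (adjusted p = 0.00163). Timp3, the matrix-bound inhibitor that also acts on Adamts enzymes, was not called. Its differences were 0.21 ± 0.10 in RVF+ (adjusted p = 0.115, and 0.0473 without RVF+ 8) and 0.18 ± 0.10 in RVF (adjusted p = 0.274), and the groups overlapped.

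**Figure D2:**
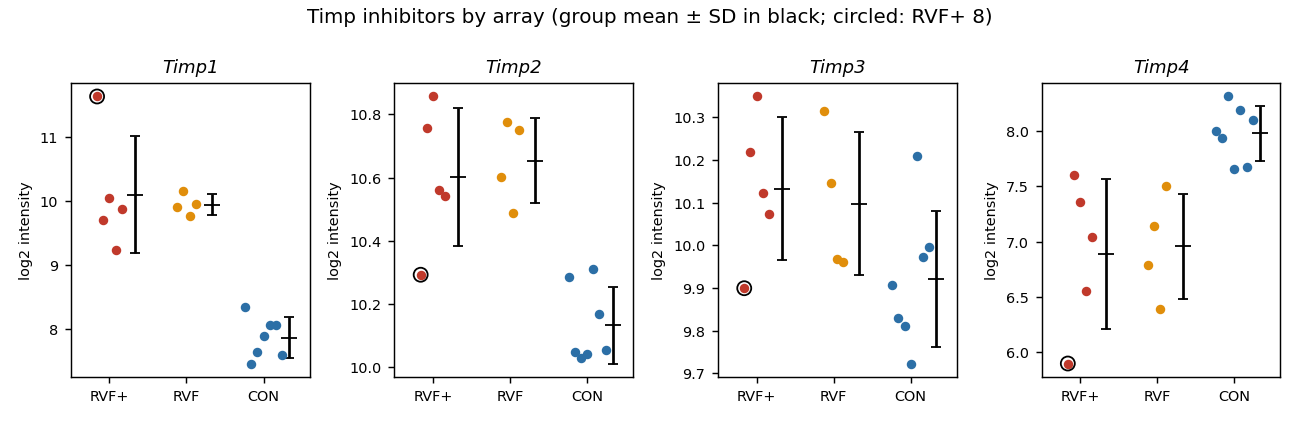
Log2 intensity (vertical axis) of the 4 Timp genes, with a point per array and the group mean ± SD in black, for RVF+ (n = 5), RVF (n = 4) and CON (n = 7), and RVF+ 8 circled. Timp1 is above and Timp4 below every CON array in all RVF+ and RVF arrays, while Timp3 overlaps between the groups.

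Among the Mmp genes, the gelatinase Mmp2 and its membrane-bound activator Mmp14 were higher in both groups. Mmp2, which degrades denatured collagen and basement membrane, had 9.89, 10.50, 10.39, 10.25 and 10.35 in RVF+, 10.33, 10.23, 10.01 and 10.22 in RVF, and 9.46 to 10.13 in CON (median 9.83). RVF+ 8 and RVF 15 fell within the CON range and the other 7 arrays lay above it. Mmp2 differed by 0.51 ± 0.12 in RVF+ (adjusted p = 0.0051) and by 0.43 ± 0.13 in RVF (adjusted p = 0.0327). The call in RVF was lost in 7 of 25 alternative settings, 6 of which left out 1 array (CON 4, CON 6, CON 7, RVF 13, RVF 14 or RVF 16), with an adjusted p of up to 0.107.

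Mmp14 had 7.56, 7.17, 7.14, 6.63 and 6.49 in RVF+, 6.20, 7.00, 6.93 and 6.40 in RVF, and 5.73 to 6.39 in CON (median 6.01). All RVF+ arrays were above CON, and RVF 13 was within its range. The differences were 0.97 ± 0.19 in RVF+ (1.96-fold, adjusted p = 0.000921) and 0.60 ± 0.20 in RVF (1.52-fold, adjusted p = 0.0472). The call in RVF rests close to the threshold and was lost in 12 of 25 alternative settings, 10 of which left out 1 array (CON 3 to 7, RVF+ 9, RVF+ 10 or RVF 14 to 16), with an adjusted p of up to 0.166. The gelatinase Mmp9, a product of neutrophils and macrophages, was not called. Mmp9 had 4.91, 4.18, 5.70, 4.18 and 3.81 in RVF+, 4.31, 4.25, 4.54 and 3.97 in RVF and 3.76 to 4.47 in CON, and its difference was 0.57 ± 0.24 in RVF+ (adjusted p = 0.0854) and 0.28 ± 0.26 in RVF (adjusted p = 0.509).

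Another membrane-type enzyme went the other way. Mmp15 had 6.88, 7.96, 7.75, 7.85 and 8.06 in RVF+, 8.14, 7.99, 8.30 and 8.09 in RVF, and 8.55 to 8.78 in CON (median 8.63). No RVF+ or RVF array reached the CON range. Mmp15 was 1.93-fold lower in RVF+ (log2 difference -0.95 ± 0.15, adjusted p = 0.000147, and -0.74 without RVF+ 8) and 1.43-fold lower in RVF (-0.51 ± 0.16, adjusted p = 0.033). Leaving out CON 1, CON 3, CON 5, RVF 13, RVF 14 or RVF 16 ended the call in RVF, with an adjusted p of up to 0.0995. The remaining membrane-type genes above background, Mmp17 and Mmp25, are tethered by a lipid anchor, and neither was called, with differences of 0.06 to 0.21 over both comparisons.

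Mmp12, the macrophage elastase, was the Mmp gene with the largest difference. Mmp12 had 7.05, 4.76, 4.51, 4.14 and 4.72 in RVF+, 4.37, 4.27, 4.61 and 4.20 in RVF, and 3.16 to 3.56 in CON (median 3.24). All RVF+ and RVF arrays were above every CON array, and RVF+ 8 was far above the rest. The difference in RVF+ was 1.72 ± 0.33 (3.30-fold, adjusted p = 0.000894), and 1.22 without RVF+ 8 (adjusted p = 1.25e-06). In RVF it was 1.05 ± 0.36 (adjusted p = 0.0516), which missed the threshold. Without RVF+ 8, which enters this test only through the shared estimate of spread, the SE of that difference was 0.11 and its adjusted p 3.94e-06. Since CON was near background, where the deposited values compress differences, the change in Mmp12 RNA may be larger than these values.

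Mmp19, which acts on basement membrane proteins, was called in RVF+ and not in RVF. Mmp19 had 6.29, 5.05, 4.94, 4.93 and 5.23 in RVF+, 5.23, 5.15, 4.70 and 5.21 in RVF, and 4.28 to 5.01 in CON (median 4.73). The groups overlapped, and RVF+ 8 was again high. The differences were 0.60 ± 0.19 in RVF+ (adjusted p = 0.0292) and 0.38 ± 0.21 in RVF (adjusted p = 0.24). Without RVF+ 8 they were 0.35 (adjusted p = 0.0489) and 0.38 (adjusted p = 0.0309). Without CON 3 or CON 6 the RVF+ call was lost, with an adjusted p of up to 0.0606. Array weights also ended it, at an adjusted p of 0.0757.

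Mmp28, also named epilysin, was called in RVF+ and not in RVF. Mmp28 had 5.25, 5.90, 6.04, 5.81 and 5.20 in RVF+, 5.51, 5.40, 5.64 and 5.45 in RVF, and 4.99 to 5.41 in CON (median 5.28). RVF+ 8, RVF+ 12 and RVF 14 lay within the CON range. Its differences were 0.42 ± 0.13 in RVF+ (adjusted p = 0.0241) and 0.28 ± 0.14 in RVF (adjusted p = 0.199), and the RVF+ call was lost without CON 3, RVF+ 9, RVF+ 10 or RVF+ 11, with an adjusted p of up to 0.0786, and with quantile normalization (0.0572) or median centring (0.0975). For Mmp12, Mmp19 and Mmp28 the difference between RVF+ and RVF itself was not called.

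Mmp8, the neutrophil collagenase, was high in 1 RVF+ array. Mmp8 had 5.06, 4.16, 7.21, 4.22 and 3.65 in RVF+, 4.47, 4.81, 5.41 and 4.27 in RVF, and 3.39 to 4.95 in CON (median 4.11). RVF+ 10 stood above all others, as it did for Mmp9, and RVF+ and CON overlapped. The difference in RVF+ was 0.81 ± 0.46 (adjusted p = 0.21). RVF+ 10 also had the highest summed intensity of neutrophil markers, 603, within a range of 250 to 603 in RVF+, against 240 to 421 in RVF and 192 to 429 in CON. None of the 7 neutrophil markers was called, and S100a8 and Mpo were near background. Their part in the Mmp8 and Mmp9 values was not tested. The other Mmp genes above background, the stromelysin Mmp11, Mmp21 and the membrane-anchored Mmp23, were not called, with differences between -0.15 and 0.27 in RVF+ and between -0.22 and 0.40 in RVF. Without RVF+ 8, Mmp23 was called higher in RVF (0.40, adjusted p = 0.00775, against 0.0806 with it), and its difference in RVF+ was 0.10, against 0.27 with it.

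**Figure D3:**
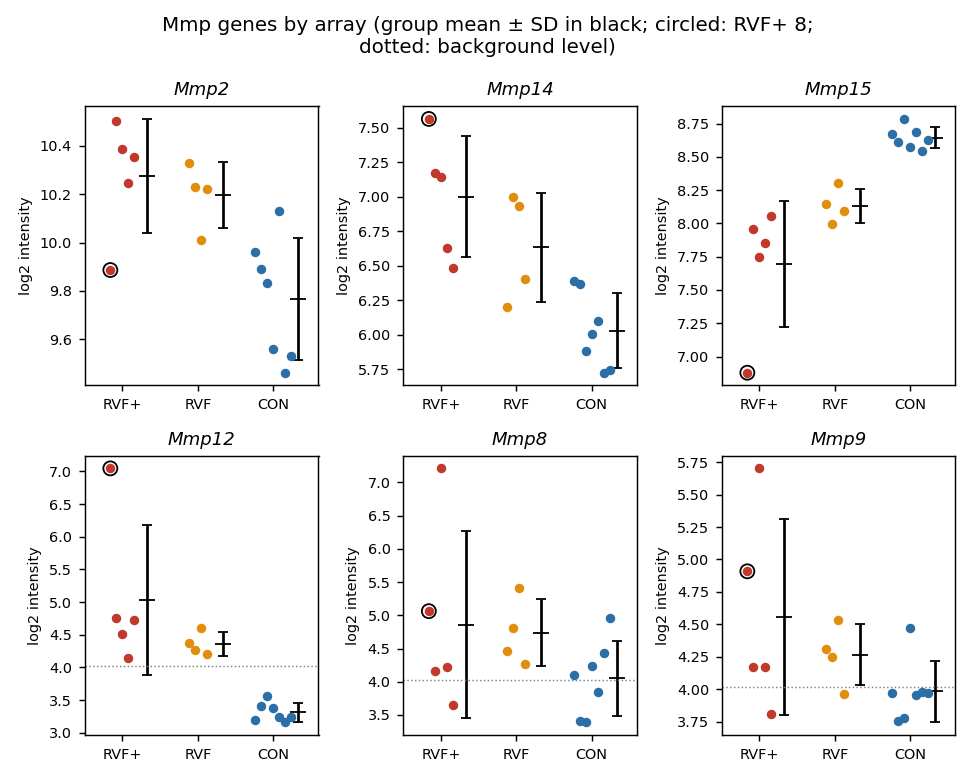
Log2 intensity (vertical axis) of 6 Mmp genes, with a point per array and the group mean ± SD in black, for RVF+ (n = 5), RVF (n = 4) and CON (n = 7), RVF+ 8 circled and the background level of 4.02 dotted. Mmp15 is below every CON array in RVF+ and RVF, Mmp12 is above every CON array, and the high points of Mmp8 and Mmp9 in RVF+ belong to RVF+ 10.

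Most Mmp genes near background are neighbours in the genome. In the RefSeq annotation of assembly GRCr8, 10 Mmp genes on chromosome 8 form a run, with few or no other protein-coding genes between adjacent ones. Of the 9 that were measured, 7 were near background (the collagenases Mmp1 and Mmp13, the stromelysins Mmp3 and Mmp10, the matrilysin Mmp7, the enamel protease Mmp20, and Mmp27), and Mmp8 and Mmp12 were above it. Promoters of this family are known for sites of AP-1, the Fos and Jun transcription factor. The AP-1 motif was therefore searched as TGANTCA from 250 bases before to 50 bases after each gene's start. N is any base, so a match on either strand is a match on both. It was present in 7 of the 9 measured genes of this run, at 8 places, in 0 of the 27 other members with a promoter in the RefSeq table, and in 7.33% of 27457 promoters. The match nearest the start of each gene is shown, because these matches set the gene run apart among the 36 members with a promoter. No promoter was held for 11 members, all outside the run, among them Mmp2, Mmp9, Mmp14, Mmp16, Mmp17 and Mmp19. Whether those have the motif is therefore not known here. Each stretch is on the + strand of GRCr8, with the motif in capitals and 20 bases on either side, and the motif shown begins 61 to 96 bases before the start of transcription. Mmp1 has another match, which begins 242 bases before it. In that match and in Mmp20 the middle base is A, and in the others it is G or C.
Mmp12 (chr8:12866545-12866591): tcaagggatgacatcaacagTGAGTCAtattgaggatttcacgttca
Mmp13 (chr8:12782743-12782789): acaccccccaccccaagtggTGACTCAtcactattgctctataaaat
Mmp3 (chr8:12925190-12925236): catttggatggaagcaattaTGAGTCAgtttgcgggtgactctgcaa
Mmp1 (chr8:12943349-12943395): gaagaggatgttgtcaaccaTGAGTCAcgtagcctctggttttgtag
Mmp10 (chr8:12974626-12974672): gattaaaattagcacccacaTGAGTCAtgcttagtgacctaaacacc
Mmp20 (chr8:13074163-13074209): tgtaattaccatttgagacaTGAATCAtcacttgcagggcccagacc
Mmp7 (chr8:13132943-13132989): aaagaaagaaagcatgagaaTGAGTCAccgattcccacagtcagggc
Of these 7 genes only Mmp12 was called in a comparison with CON, and the other 6 were near background in all groups. Among the members called higher in at least 1 comparison the motif in this exact form was in 1 of 14 with a promoter in the table, and among those called lower in 0 of 5. Near matches were not counted, such as TGAGTAA in the Timp1 window, with A in place of C. These counts therefore do not show that the other members lack AP-1 sites. A match describes the letters in this window and is no measure of binding.

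Among the proteoglycan-cleaving Adamts genes, Adamts1, Adamts4 and Adamts9 were called higher in RVF+, of 7 measured, and Adamts1 alone in RVF. Adamts1, which cleaves versican and aggrecan, had 9.14, 8.08, 9.07, 8.55 and 7.97 in RVF+, 8.59, 8.29, 8.55 and 8.08 in RVF, and 7.22 to 7.90 in CON (median 7.72). Neither RVF+ nor RVF overlapped CON. The differences were 0.91 ± 0.19 in RVF+ (1.88-fold, adjusted p = 0.0014) and 0.73 ± 0.20 in RVF (1.66-fold, adjusted p = 0.0174). Without RVF 13 or RVF 15 the call in RVF was lost, with an adjusted p of up to 0.0671.

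Adamts4, an aggrecanase, varied most between the RVF+ and RVF arrays of this subfamily, with SDs of 0.86 in RVF+ and 0.78 in RVF. Adamts4 had 7.03, 5.81, 6.08, 5.33 and 4.73 in RVF+, 4.54, 5.94, 5.63 and 4.37 in RVF, and 4.12 to 4.97 in CON (median 4.47). RVF+ 12, RVF 13 and RVF 16 lay within the CON range. The difference was 1.33 ± 0.33 in RVF+ (2.52-fold, adjusted p = 0.00515, and 1.02 without RVF+ 8) and 0.65 ± 0.35 in RVF (adjusted p = 0.224).

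Adamts9, which cleaves versican, had 7.67, 7.22, 7.28, 6.73 and 7.19 in RVF+, 6.85, 6.91, 6.67 and 6.80 in RVF, and 6.34 to 6.60 in CON (median 6.48). All RVF+ and RVF arrays were above CON. The difference was 0.76 ± 0.11 in RVF+ (1.70-fold, adjusted p = 9.92e-05). In RVF it was 0.35 ± 0.12 and missed the threshold (adjusted p = 0.0553), which it passed without RVF+ 8 (adjusted p = 0.0108) and without RVF+ 11. The aggrecanase Adamts5 was not called, at -0.10 ± 0.13 in RVF+ and -0.39 ± 0.14 in RVF (adjusted p = 0.0605, and 0.0477 without RVF+ 8). Adamts15 was not called either, at 0.19 in RVF+ and 0.12 in RVF.

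The 2 probe sets of Adamts8 disagreed. The brighter one, which stands for the gene here, differed by 0.04 ± 0.12 in RVF+ and -0.12 ± 0.12 in RVF and was not called. The dimmer one had 6.07, 4.66, 3.77, 4.13 and 5.32 in RVF+, 5.60, 4.87, 5.41 and 4.91 in RVF, and 3.40 to 4.01 in CON (median 3.82). On it RVF lay wholly above CON, and RVF+ 10 lay within the CON range. It differed by 1.05 ± 0.29 in RVF+ (adjusted p = 0.012) and by 1.46 ± 0.31 in RVF (adjusted p = 0.00358), so no direction is given for Adamts8.

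The procollagen N-propeptidases, which trim the amino end of collagen precursors, split. Adamts2 had 7.59, 8.17, 8.10, 7.77 and 7.67 in RVF+, 7.85, 8.07, 7.84 and 8.10 in RVF, and 7.19 to 7.79 in CON (median 7.52). RVF lay wholly above CON, while RVF+ overlapped it. Adamts2 differed by 0.37 ± 0.11 in RVF+ (adjusted p = 0.0239) and by 0.47 ± 0.12 in RVF (adjusted p = 0.0127), and the RVF+ call was lost without RVF+ 9 or RVF+ 10, with an adjusted p of up to 0.0758. With median centring both calls of Adamts2 were lost, at an adjusted p of 0.112 in RVF+ and 0.0532 in RVF.

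Adamts3 had 4.20, 3.91, 3.91, 4.04 and 4.57 in RVF+, 4.07, 3.96, 3.89 and 4.55 in RVF, and 4.62 to 5.37 in CON (median 5.02). All RVF+ and RVF arrays were below CON. Adamts3 was 1.84-fold lower in both groups, with log2 differences of -0.88 ± 0.15 in RVF+ (adjusted p = 0.00038) and -0.88 ± 0.16 in RVF (adjusted p = 0.00112). The RVF+ and RVF means were both 4.12, close to the background level of 4.02. The size of the fall and its likeness in the groups are therefore uncertain. The second probe set of Adamts3 gave -0.63 in RVF+ and -0.64 in RVF, with both means at 3.92, below that level. The third member, Adamts14, was not called, at 0.11 in RVF+ and 0.13 in RVF.

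The other Adamts genes held both rising and falling members. Adamts6, a relative of Adamts10 with a known part in fibrillin microfibrils, had the smallest adjusted p of all 47 members in RVF+. Adamts6 had 7.08, 6.85, 6.99, 7.10 and 6.85 in RVF+, 6.73, 6.94, 6.59 and 6.88 in RVF, and 5.96 to 6.20 in CON (median 6.10). Both groups lay well clear of CON, with SDs of 0.12, 0.16 and 0.09 in RVF+, RVF and CON. The differences were 0.89 ± 0.08 in RVF+ (1.85-fold, adjusted p = 8.43e-07) and 0.70 ± 0.08 in RVF (1.62-fold, adjusted p = 1.90e-05).

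Adamts10, which binds fibrillin, rose by little. Adamts10 had 7.22, 7.27, 7.35, 7.22 and 7.28 in RVF+, 7.62, 7.36, 7.23 and 7.26 in RVF, and 6.92 to 7.17 in CON (median 7.00). Neither group overlapped CON, although the gap was small. The differences were 0.23 ± 0.08 in RVF+ (adjusted p = 0.0347) and 0.32 ± 0.08 in RVF (adjusted p = 0.0108). The RVF+ call was lost in 8 of 25 alternative settings, 7 of which left out 1 array (CON 1, CON 4, CON 6, CON 7, RVF+ 9, RVF+ 10 or RVF+ 12). The RVF call was lost when RVF 13 was left out, at an adjusted p of 0.0564. Median centring ended both calls of Adamts10, at an adjusted p of 0.22 in RVF+ and 0.0614 in RVF.

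Adamts17, linked in humans to a disorder of the lens and of stature, had 4.89, 5.30, 5.03, 5.45 and 5.35 in RVF+, 5.25, 5.73, 5.34 and 5.26 in RVF, and 4.65 to 4.98 in CON (median 4.86). Only RVF+ 8 lay within the CON range. The differences were 0.37 ± 0.11 in RVF+ (adjusted p = 0.0193) and 0.56 ± 0.12 in RVF (adjusted p = 0.00314), and the RVF+ call was lost when RVF+ 11 was left out, at an adjusted p of 0.055. Median centring also ended it, at an adjusted p of 0.108.

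Adamts7 and Adamts12, a related pair known to cleave cartilage oligomeric matrix protein, were called lower. Adamts7 had 5.20, 5.34, 5.57, 5.69 and 5.80 in RVF+, 5.80, 5.80, 5.88 and 5.68 in RVF, and 6.03 to 6.52 in CON (median 6.34). All RVF+ and RVF arrays lay below CON. Adamts7 differed by -0.76 ± 0.11 in RVF+ (1.70-fold lower, adjusted p = 5.66e-05) and by -0.49 ± 0.11 in RVF (1.40-fold lower, adjusted p = 0.00661).

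Adamts12 was called in RVF only. Adamts12 had 7.68, 7.87, 8.16, 7.36 and 7.15 in RVF+, 6.97, 7.60, 7.02 and 6.76 in RVF, and 7.62 to 8.14 in CON (median 7.92). RVF lay wholly below CON, while RVF+ overlapped it. The differences were -0.22 ± 0.17 in RVF+ (adjusted p = 0.366) and -0.77 ± 0.18 in RVF (1.71-fold lower, adjusted p = 0.0059). Adamts19, known for a part in heart valves, was not called, at -0.12 in RVF+ and -0.03 in RVF, and its second probe set was not called either.

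Adamtsl2, which binds fibrillin and a binding protein of latent Tgfb and is mutated in human geleophysic dysplasia, had the largest rise outside Timp1 in RVF. Adamtsl2 had 6.70, 6.85, 6.51, 5.85 and 6.84 in RVF+, 6.94, 6.71, 6.65 and 6.77 in RVF, and 5.04 to 5.26 in CON (median 5.17). All RVF+ and RVF arrays lay above CON, with RVF+ 11 the lowest of them. The differences were 1.39 ± 0.13 in RVF+ (2.61-fold, adjusted p = 1.96e-06) and 1.61 ± 0.14 in RVF (3.04-fold, adjusted p = 1.39e-06).

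Adamtsl3, a matrix glycoprotein also named punctin 2, had 5.94, 6.38, 6.06, 6.26 and 6.30 in RVF+, 6.97, 6.13, 6.67 and 6.72 in RVF, and 5.62 to 5.89 in CON (median 5.66). Neither group overlapped CON, and 3 of the 4 RVF arrays were above all RVF+ arrays. Adamtsl3 differed by 0.46 ± 0.12 in RVF+ (1.37-fold, adjusted p = 0.00718) and by 0.89 ± 0.13 in RVF (1.86-fold, adjusted p = 9.10e-05).

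Adamtsl5, which binds fibrillin, was called in RVF only. Adamtsl5 had 6.28, 6.46, 6.28, 6.28 and 6.47 in RVF+, 6.57, 6.85, 6.74 and 6.57 in RVF, and 6.20 to 6.40 in CON (median 6.34). RVF lay wholly above both RVF+ and CON. The differences were 0.04 ± 0.07 in RVF+ (adjusted p = 0.743) and 0.37 ± 0.08 in RVF (adjusted p = 0.00283). Adamtsl4, linked in humans to displacement of the lens, was not called, at -0.34 ± 0.18 in RVF+ (-0.10 without RVF+ 8) and -0.09 ± 0.19 in RVF.

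**Figure D4:**
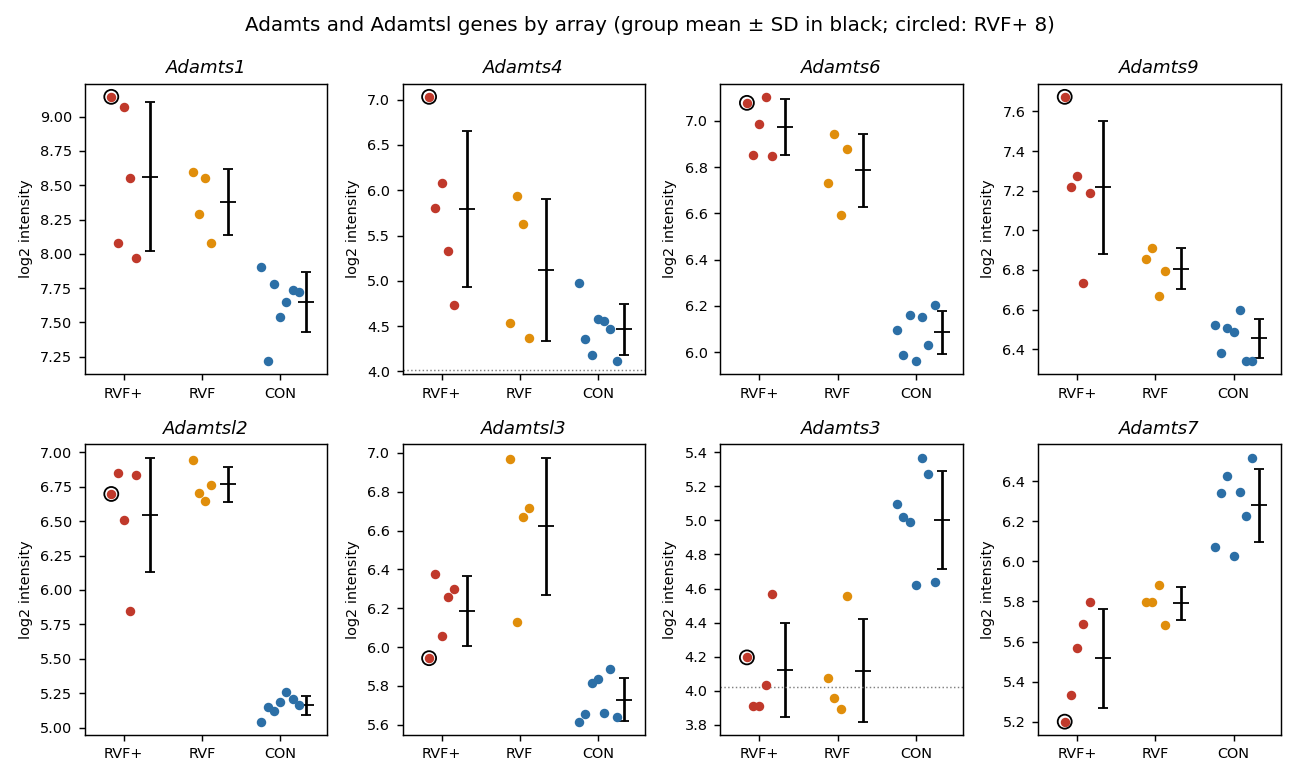
Log2 intensity (vertical axis) of 8 Adamts and Adamtsl genes, with a point per array and the group mean ± SD in black, for RVF+ (n = 5), RVF (n = 4) and CON (n = 7), RVF+ 8 circled and the background level dotted where it falls in the range. Adamts6, Adamtsl2 and Adamtsl3 are above every CON array in RVF+ and RVF, and Adamts3 and Adamts7 are below every CON array.

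Members near background gave no usable level in these arrays. Besides the 7 neighbouring Mmp genes these were Mmp16, a membrane-type enzyme, and Adamts16, Adamts18 and Adamts20. Their differences lay between -0.25 and 0.22 in RVF+ and between -0.20 and 0.15 in RVF. Mmp7 reached 4.29 in RVF+ 8, against 3.05 to 3.41 in the other RVF+ arrays, 3.29 to 3.67 in RVF and 3.00 to 3.45 in CON. Adamts13 shares its probe set with Cacfd1, and Mmp1b shares its probe set with Mmp12. Adamts13, Mmp1b and these shared probe sets were not analysed here, and the Mmp12 values come from another probe set.

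No member was called between RVF+ and RVF, and the background was 0 of 17245 genes. At an unadjusted p under 0.05, 7 members differed, among 7.20% of all genes that did. RVF+ lay wholly below RVF for 1 member, Adamtsl5, against 1.15% of all genes. Wholly above RVF lay 0 members, against 0.586%. Adamtsl5 differed by -0.33 ± 0.08 (adjusted p = 0.403). The other 6 were Adamtsl3 at -0.44 ± 0.13, Adamts9 at 0.41 ± 0.13, Adamts12 at 0.55 ± 0.19, Mmp15 at -0.43 ± 0.17, Adamts7 at -0.27 ± 0.12 and Adamts6 at 0.19 ± 0.09, with adjusted p between 0.439 and 0.69. Without RVF+ 8 the difference in Mmp15 was -0.23 and that in Adamts9 was 0.30. The largest difference in size was that of Adamts4, 0.68 ± 0.37, and 0.37 without RVF+ 8. For Timp1 it was 0.16 ± 0.33 and -0.22 without RVF+ 8. Standard errors of this size leave room for differences in either direction for most members, and a missed threshold does not show that the groups were alike.

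Read by call, 15 members were called in the same direction in RVF+ and RVF against CON. Adamts4, Adamts9, Mmp12, Mmp19 and Mmp28 were called in RVF+ alone, and Adamts12 and Adamtsl5 in RVF alone. Without RVF+ 8, Adamts9, Mmp12 and Mmp19 were called higher in RVF too. For none of the 7 members called in RVF+ or RVF alone was the difference between RVF+ and RVF called.

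Genes that act with these families were counted in lists written from textbook knowledge, with earlier results of these data known. Of all genes, 14.1% were called higher and 13.6% lower in RVF+, and 8.86% and 8.29% in RVF. In the plasminogen system, whose proteases activate metalloprotease precursors, 4 of 8 measured genes rose in both groups and 0 fell. Serpine2, an inhibitor of plasminogen activators and thrombin, differed by 1.51 ± 0.18 in RVF+ and 2.05 ± 0.19 in RVF. The activator Plat differed by 0.84 ± 0.14 in RVF+ and 0.49 ± 0.15 in RVF, and the receptor Plaur by 1.03 ± 0.19 in RVF+ and 0.72 ± 0.20 in RVF. Of 15 other activators, inhibitors and uptake receptors, 3 rose (20%) and 1 fell (6.67%) in RVF+ and 1 rose (6.67%) in RVF. These counts are near the shares of all genes. Lrp1, a receptor that takes up protease and inhibitor complexes, rose by 0.74 ± 0.08 in RVF+ and 0.78 ± 0.08 in RVF. Thbs2, a matricellular protein that binds Mmp2, rose in RVF+ (0.66 ± 0.12) and was not called in RVF (0.27 ± 0.12). Spock2, a testican proteoglycan, fell in RVF+ (-0.52 ± 0.15) and was not called in RVF (-0.05 ± 0.16).

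Other matrix proteases rose more often than they fell, against 14.1% of all genes higher in RVF+ and 8.86% in RVF. Of 5 astacin proteases and enhancers, Pcolce, which speeds the trimming of procollagen, rose by 0.94 ± 0.20 in RVF+ and 0.98 ± 0.21 in RVF, and Bmp1, the procollagen C-proteinase, by 0.33 ± 0.10 in RVF+ and 0.41 ± 0.11 in RVF. Of 8 membrane-bound Adam genes 3 rose in RVF+ and 2 in RVF, with Adam9 at 0.57 ± 0.07 in RVF+ and 0.41 ± 0.08 in RVF, and Adam15 at 0.72 ± 0.12 in RVF+ and 0.49 ± 0.13 in RVF. Adam12 rose in RVF+ (1.26 ± 0.44, adjusted p = 0.0423) and was not called in RVF (0.61 ± 0.47, adjusted p = 0.428). Without RVF+ 8 it was called in both, at 0.59 in RVF+ (adjusted p = 0.00954) and 0.61 in RVF (adjusted p = 0.00763). Of 7 cathepsin and cystatin genes 5 rose in both groups. Ctsk, a collagen-degrading lysosomal protease, rose by 1.24 ± 0.11 in RVF+ and 1.09 ± 0.11 in RVF, and Ctsl by 0.82 ± 0.07 in RVF+ and 0.50 ± 0.08 in RVF. Ctss, which is abundant in macrophages, rose by 1.54 ± 0.21 in RVF+ and 0.94 ± 0.23 in RVF.

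Matrix substrates were also mostly higher, at 68.4% in RVF+ and 57.9% in RVF, against 14.1% and 8.86% of all genes. Of 19 matrix proteins 13 rose and 1, the laminin chain Lama2, fell in RVF+ (-0.30 ± 0.10), and 11 rose and 0 fell in RVF. Without RVF+ 8 the call of Lama2 was lost (-0.20, adjusted p = 0.0744), and 12 rose and 0 fell in RVF+. The proteoglycan Bgn rose by 1.21 ± 0.09 in RVF+ and 1.34 ± 0.10 in RVF, and fibronectin (Fn1) by 1.73 ± 0.15 in RVF+ and 1.10 ± 0.16 in RVF. Versican (Vcan), a substrate of Adamts1, Adamts4 and Adamts9, rose by 1.19 ± 0.15 in RVF+ and 0.91 ± 0.16 in RVF. Fibrillin 1 (Fbn1) rose by 1.04 ± 0.15 in RVF+ and 1.06 ± 0.16 in RVF. Lama2 was named after its value was seen.

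Markers of several other cell types moved as well. Of all genes, 14.1% were called higher and 13.6% lower in RVF+, and 8.86% and 8.29% in RVF. Beside those shares, 1 called marker in a list this short says little. Of 9 macrophage and monocyte markers 8 rose in RVF+ and 6 in RVF (8 in each without RVF+ 8), none was near background, and their summed intensity was 1828 to 4663 in RVF+, 1525 to 2216 in RVF and 943 to 1382 in CON. Of 8 fibroblast markers 5 rose in RVF+ and 4 in RVF (5 in each without RVF+ 8), and their sum was 9536 to 10872 in RVF+, 9312 to 10813 in RVF and 7806 to 9010 in CON. Of 8 cardiomyocyte markers 4 fell in RVF+ and 0 in RVF (4 in RVF+ and 3 in RVF without RVF+ 8), and their sum was 21056 to 32719 in RVF+, 30904 to 33177 in RVF and 36864 to 38511 in CON. Of 4 red cell markers 3 rose in RVF+ and 0 in RVF. Of 5 lymphocyte markers 1 rose in each group (1 in RVF+ and 2 in RVF without RVF+ 8), Ms4a1 was near background, and their sum was 460 to 814 in RVF+, 441 to 631 in RVF and 315 to 372 in CON. Of 3 atrial markers Nppa, also a load-responsive gene of ventricular muscle, rose in both groups. The atrial genes Myl7 and Sln fell in RVF, by 1.93 ± 0.64 and 1.86 ± 0.60 on the log2 scale, and were not called in RVF+, at -1.52 ± 0.60 and -1.49 ± 0.56, and Myl7 ranged between 6.22 and 10.79 in CON. Of 6 smooth muscle and pericyte markers 2 rose in each group, and of 5 endothelial markers 1 rose in RVF+ and 0 in RVF (2 in RVF+ and 0 in RVF without RVF+ 8). No mast cell or adipocyte marker was called, although 2 of 5 mast cell markers in RVF+ and 1 in RVF were called higher without RVF+ 8. The 8 fibroblast markers include Col1a1 and Col1a2, which are also among the 19 substrates. The lowest cardiomyocyte sum and the highest macrophage sum both belong to RVF+ 8. Of all arrays it had the highest Timp1, Mmp12, Mmp14, Mmp19, Adamts1, Adamts4 and Adamts9 and the lowest Timp4, Mmp15 and Adamts7. Among the RVF+ arrays it had the lowest Timp2, Mmp2, Adamts2, Adamts17 and Adamtsl3, which were called higher in RVF+. The part of the cell types in the results was not tested. In tissue RNA, fewer cells of a type and less RNA per cell cannot be told apart.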

How the data were processed

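The values deposited by the authors are intensities of probe sets on each array, summarised by RMA, which corrects background, normalizes arrays and combines probes, per the submitters' processing notes. Its software and the array and genome builds are not given here. Per the labels, 500 ng of total RNA went into each labelling, and ribosomal RNA was not removed. The deposited intensities were on a linear scale (2.20 to 10294) and were converted to log2 before testing. Nothing in the labels says that samples of a group are separate animals, so p-values reflect only sample-to-sample spread, possibly technical, and the number of arrays limits their precision.

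Of 29214 probe sets, 18644 were paired with 1 gene symbol, 962 with several and 9608 with none listed. Probe sets with 1 symbol were kept and the one with the highest mean stood for its gene, which left 17245 genes. All 47 members have 1 entry in the RefSeq gene table by identifier. Of the 47, 3 had more than 1 probe set with 1 symbol (Adamts3, Adamts8 and Adamts19).

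Group means were fitted with limma 3.58.1 (lmFit and eBayes, 13 residual and 4.45 prior degrees of freedom) in R 4.3.3, and its two-sided p-values were Benjamini-Hochberg adjusted over the whole table of genes. All adjusted p-values come from limma. The procedure was tested on simulated data. The symbol rule fixed the members, and the gene lists were chosen with earlier results of these data known. Members above background that were called in at least 1 comparison are given per array, other members by difference or range, and in each other list up to 3 called genes with the smallest p. Alternatives were quantile normalization, median centring, filters on dim genes, averaging a gene's probe sets, testing all probe sets, only the groups compared, trend and robust moderation, array weights (statmod 1.5.0), stricter background levels, and leaving out each array. Promoter sequences are from RefSeq (GRCr8), which held 36 of the 47 members.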

Additional observations from a re-analysis of the deposited data

Results flagged for a closer look

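In each group the highest and the lowest array of each of the 36 members above background were compared with the rest of their group by Dixon's criterion. Of 108 groups checked 9 had such an array, where chance alone gives about 1 in 20. RVF+ 8 accounts for 5 of them. It was high for Mmp12 (7.05, against 4.14 to 4.76 in the other RVF+ arrays), Mmp19 (6.29, against 4.93 to 5.23) and Mmp23 (6.39, against 5.49 to 5.64). It was low for Mmp15 (6.88, against 7.75 to 8.06) and Adamtsl4 (6.12, against 7.16 to 7.58). The remaining arrays were RVF+ 11, low for Mmp21 (3.59, against 4.02 to 4.18), RVF 14, low for Mmp17 (4.50, against 4.89 to 4.92), RVF 15, low for Mmp19 (4.70, against 5.15 to 5.23), and CON 4, high for Mmp9 (4.47, against 3.76 to 3.98).

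The dimmer probe set of Adamts8, which does not stand for the gene in the counts above, was 1.05 higher in RVF+ than in CON and 1.46 higher in RVF than in CON on the log2 scale, whereas the brighter one was not called.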

How the results depend on the processing

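No direction of a called member changed under any of the alternatives. Of 919 re-computed values of called members (25 or 24 settings each), 866 stayed called and 53 missed the threshold, 22 in RVF+ and 31 in RVF. Of 719 values of those same genes where they were not called, 15 passed it, all in RVF. Leaving out 1 array at a time gave 13 to 17 members higher and 4 lower in RVF+, 9 to 16 higher and 4 to 6 lower in RVF, and 0 called between RVF+ and RVF. No member was called between RVF+ and RVF under any other setting either, with 4 to 10 at an unadjusted p under 0.05. With only the 2 groups compared in the fit, RVF had 17 higher and 6 lower, against 14.1% and 11.7% of all genes. The number of members above background was 31 with the 99th percentile of chemosensory genes and 24 with the median of all genes as the limit.

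Signs turned only where no difference was called, in 19 values. Between RVF+ and RVF the difference of Adamts3 (0.0044) became -0.0052 with quantile normalization, -0.0059 with median centring and -0.0372 with array weights, and ranged between -0.1066 and 0.1494 without single arrays. Timp1 became -0.1312, Timp2 0.0350 and Timp4 0.2227 with array weights. Without single arrays Timp1 ranged between -0.2246 and 0.3782, Timp2 between -0.1156 and 0.0253, Timp4 between -0.2556 and 0.1815, and Mmp19 between -0.0347 and 0.3065. Between RVF+ and CON, Adamtsl5 (0.038) became -0.0015 with quantile normalization and -0.0559 with median centring. The cause was not tested. No paired analysis was possible because each sample number occurs in 1 group only.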
